A study of Mus musculus with 24 samples.

Results

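Genes of the nuclear pore and of nuclear transport were followed across the hearts of mice with cardiac transgenes for the enzymes of O-GlcNAc cycling. The genes were chosen by symbol alone: nucleoporins (Nup and Nupl genes, Tpr, Rae1, Aaas, Pom121, Seh1l, Sec13 and Ranbp2), importins alpha and beta (Kpna and Kpnb), other importins (Ipo), exportins (Xpo) and transportins (Tnpo). They numbered 47 of 19660 rows with a value in every library, and rows that join several symbols were left out. The values are FPKM, fragments counted per length of transcript and per sequencing depth, in whole-heart polyadenylated RNA of 24 adult C57BL/6J mice that had no treatment. Each genotype had 6 hearts, 3 from males and 3 from females, each heart as its own library. The genotypes were OGT_TG, with a cardiac-specific transgene for OGT, which attaches O-GlcNAc to proteins; OGT_TG_x_OGA_TG, with both transgenes and here called double transgenic; OGA_TG, with a cardiac-specific transgene for OGA, which removes O-GlcNAc; and WT. The promoter that drives each transgene is not given in the sources used here, and the labels do not say whether a genotype comes from more than a single founder line. The labels give the mice as adult without an age.

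The nuclear pore complex is a ring-shaped channel through the nuclear envelope, built from stacked rings of scaffold nucleoporins around a lining of flexible nucleoporins rich in phenylalanine and glycine. Cargo passes through this lining on carrier proteins: importin alpha adapters bind the cargo for importin beta, other members of the importin beta family bind cargo directly, and exportins carry proteins and RNA out, with the GTPase Ran setting the direction. Nucleoporins of the channel are among the most heavily O-GlcNAc-modified proteins known, so the mRNAs described here encode both substrates of OGT and carriers that work with them.

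The genotype labels were borne out by the transgene rows. The row named OGT averaged 1748 ± 737 FPKM in OGT_TG, 4652 ± 449 in double transgenic, 0.588 ± 0.266 in OGA_TG and 1.68 ± 1.45 FPKM in WT hearts (SD, n = 6 each). The row named OGA averaged 3462 ± 294 FPKM in double transgenic and 4122 ± 732 FPKM in OGA_TG hearts (SD, n = 6 each), and at most 0.0222 FPKM was found in any OGT_TG or WT heart. OGT_TG replicates 3 and 6 stood apart from the other OGT_TG hearts: their summed cardiomyocyte marker level was 30170 and 31004 FPKM, below the other 4, and their summed macrophage marker level was 609.1 and 560.7 FPKM, above the other 4. The same hearts had the lowest OGT row of this genotype, at 1104 and 714.7 FPKM, against 1691 to 2691 FPKM in the other 4. Results that involve OGT_TG are therefore given with and without both hearts where a call changed. Library sums of FPKM lay between 463500 and 513602, and FPKM holds no counts, so absolute depth is unknown.

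The promoters of 4 carriers of the importin beta family are shown because these genes carried the calls that held up best: Ipo7, Ipo5 and Ipo9 were higher in OGT_TG than in WT hearts, and Ipo13 was lower there. Ipo7 (chr7:110018274-110056609, plus strand), Ipo5 (chr14:120911224-120947999, plus strand), Ipo9 (chr1:135382312-135430499, minus strand) and Ipo13 (chr4:117894486-117914999, minus strand) are protein-coding genes on GRCm38 (mm10) in GENCODE M21. Each sequence is the RefSeq GRCm38.p6 promoter of 300 bases, from 250 before to 50 after the transcription start, read 5′ to 3′ on the gene's strand. The windows are chr7:110018065-110018364, chr14:120910944-120911243, chr1:135430450-135430749 and chr4:117914950-117915249, in the same order. Capitals mark matches on either strand to the CCAAT box (CCAAT), the GC box of SP1 and KLF factors (GGGCGG), the E-box (CACGTG), the ETS site (CCGGAAG), the cyclic AMP response element (TGACGTCA), the amino acid response element core (TGATGCAA), the NRF1 core (GCGCATGCG) and a YY1 site (AAGATGGCG).
Ipo7: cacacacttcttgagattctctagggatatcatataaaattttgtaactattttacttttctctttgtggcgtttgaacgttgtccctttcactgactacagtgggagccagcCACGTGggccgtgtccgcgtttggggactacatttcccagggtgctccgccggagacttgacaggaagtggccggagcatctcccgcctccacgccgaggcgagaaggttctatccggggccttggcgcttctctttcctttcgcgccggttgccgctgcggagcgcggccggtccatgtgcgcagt
Ipo5: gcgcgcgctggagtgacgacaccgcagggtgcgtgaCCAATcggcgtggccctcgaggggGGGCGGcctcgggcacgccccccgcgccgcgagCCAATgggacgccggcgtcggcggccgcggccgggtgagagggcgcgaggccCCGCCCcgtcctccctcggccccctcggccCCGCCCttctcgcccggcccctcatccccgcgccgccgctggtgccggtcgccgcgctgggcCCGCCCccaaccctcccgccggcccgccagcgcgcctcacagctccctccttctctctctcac
Ipo9: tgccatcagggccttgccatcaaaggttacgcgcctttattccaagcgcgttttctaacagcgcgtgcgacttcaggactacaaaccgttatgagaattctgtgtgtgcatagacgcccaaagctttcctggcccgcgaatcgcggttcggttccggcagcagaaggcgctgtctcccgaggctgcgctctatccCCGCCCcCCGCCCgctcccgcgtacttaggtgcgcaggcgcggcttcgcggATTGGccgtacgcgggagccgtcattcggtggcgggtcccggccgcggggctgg
Ipo13: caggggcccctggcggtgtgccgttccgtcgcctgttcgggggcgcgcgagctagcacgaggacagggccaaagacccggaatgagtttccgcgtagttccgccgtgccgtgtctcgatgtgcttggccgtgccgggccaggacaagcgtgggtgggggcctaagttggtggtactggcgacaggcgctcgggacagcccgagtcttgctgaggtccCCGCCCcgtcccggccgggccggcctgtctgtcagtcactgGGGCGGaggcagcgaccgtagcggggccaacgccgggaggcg

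The Ipo7 promoter held a single match, an E-box with its first base at position -137, where -1 lies directly before the start. The Ipo5 promoter held 2 CCAAT boxes and 4 GC boxes, the Ipo9 promoter 1 CCAAT box and 2 GC boxes, and the Ipo13 promoter 2 GC boxes. Promoters were found for 37 of the 47 genes, with the entry nearest the GENCODE start taken for each. Their median GC content was 64.0%, against 52.7% over 32851 mouse promoters of the same length. The GC box was present in 67.6% of the 37 promoters and in 35.7% of all promoters, the CCAAT box in 51.4% and 37.4%, the E-box in 16.2% and 7.15%, the ETS site in 21.6% and 8.86%, the YY1 site in 10.8% and 1.40%, and the NRF1 core in 8.11% and 1.75%. The cyclic AMP response element was present in 8.11% of the 37 and in 1.79% of all promoters, and the amino acid response element core in 0 of the 37 and in 0.895% of all. The YY1 share rests on 4 promoters of the 37, and those of the NRF1 core and the cyclic AMP response element on 3 each. All promoters means every entry, not limited by gene or by expression in heart, so the sets were built differently. These are matches of letters in a window and not measured binding.

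In WT hearts the highest levels were those of Ipo5, Sec13, Ipo7 and Kpna1. Of the 47 genes, 45 reached 1 FPKM in at least 6 hearts and were tested. Nup210l, a testis-enriched relative of Nup210, lay between 0.0275 and 0.160 FPKM over all hearts, and Nup62cl, a relative of the channel nucleoporin Nup62, was at 0 in most hearts. The median WT level of the 45 genes was 10.3 FPKM, against 8.57 FPKM for all 12020 tested rows. Ipo5, a carrier of ribosomal proteins and histones, was highest at 62.5 ± 5.60 FPKM (SD, n = 6), and every WT heart lay above every WT heart of the next gene. Sec13 at 48.5 ± 3.03 FPKM, Ipo7 at 44.1 ± 4.69 FPKM and Kpna1 at 37.4 ± 4.19 FPKM followed (SD, n = 6 each). Sec13 serves both the outer ring of the pore and the coat of vesicles that leave the endoplasmic reticulum. Kpna1 encodes an importin alpha adapter. Kpna1 hearts stood at 27.4, 34.2 and 40.3 FPKM (lowest, median and highest) in OGT_TG, at 30.7, 33.6 and 38.4 FPKM in double transgenic, at 31.9, 36.7 and 39.8 FPKM in OGA_TG and at 32.2, 37.2 and 42.7 FPKM in WT, and all groups overlapped. The lowest tested gene was Nup210, a membrane-spanning nucleoporin, at 1.02 ± 0.142 FPKM (SD, n = 6). In the WT order of all 47 genes, 5 of 46 neighbouring pairs had no overlap between hearts, and the ranges of the other neighbours overlapped.

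**Figure D1:**
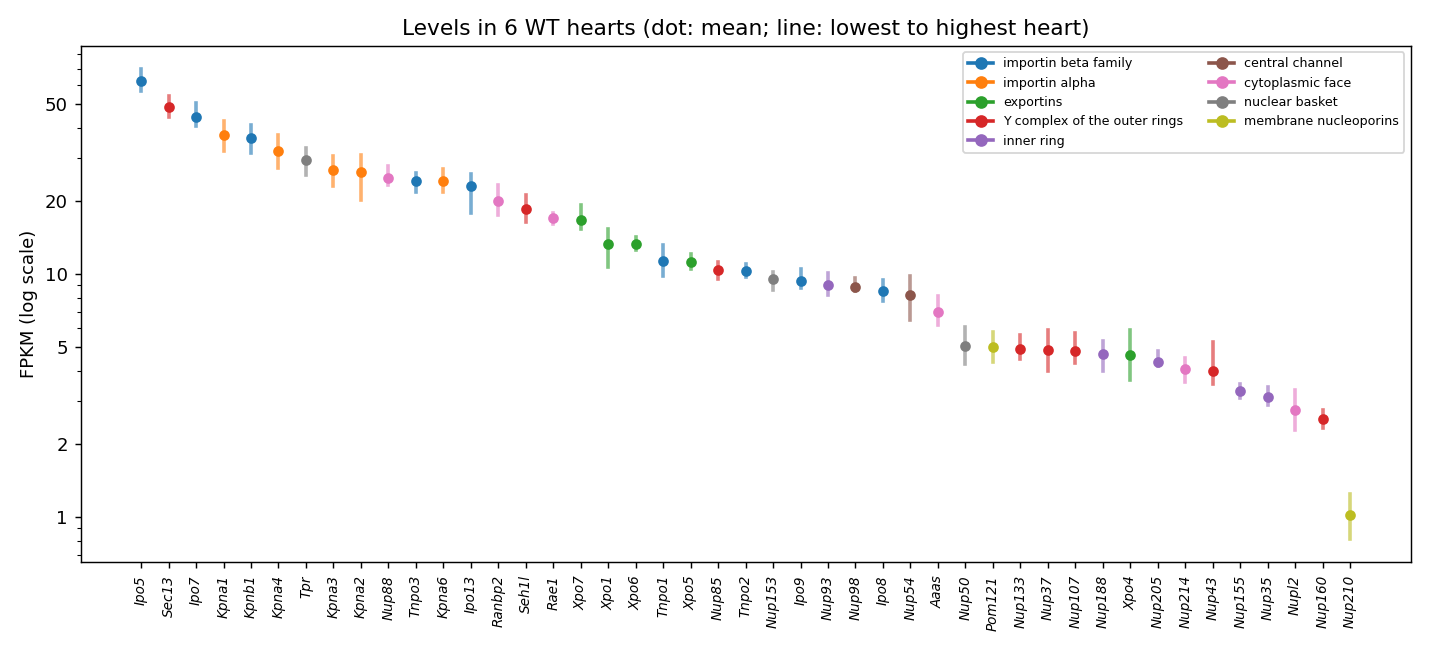
Mean level (dot) and range over 6 WT hearts (line) of the 45 tested genes, in FPKM on a log axis, coloured by place in the transport machinery. Ipo5 at 62.5 FPKM is highest and Nup210 at 1.02 FPKM lowest, and most neighbours overlap.

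The genes varied little between hearts of a genotype. The median coefficient of variation was 9.75% in OGT_TG, 8.14% in double transgenic, 7.81% in OGA_TG and 8.96% in WT hearts. The same median over all tested rows was 14.8% in OGT_TG, 11.5% in double transgenic, 10.8% in OGA_TG and 11.4% in WT hearts. The largest within OGT_TG was 37.3%, for Nup210. Within a genotype, many of the genes were high or low in the same heart. OGT_TG replicate 5 was the highest OGT_TG heart for 19 of 45 genes (42.2%, against 20.1% of all tested rows). Double transgenic replicate 6 was highest for 21 genes (46.7%, against 35.4%) and OGA_TG replicate 4 for 22 genes (48.9%, against 22.4%). WT replicate 1 was the highest WT heart for 22 genes (48.9%, against 28.5%), and WT replicate 3 was the lowest for 19 (42.2%, against 21.7%).

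In hearts with the OGT transgene alone, the mRNAs of Ipo7, Ipo5, Ipo9, Nup155, Nup93, Sec13 and Rae1 were higher and those of Ipo13 and Nup133 lower than in WT. Of 45 genes, 7 were higher and 2 lower in OGT_TG than in WT hearts (limma on log2(FPKM + 1), with a call where the p adjusted by Benjamini and Hochberg for every row tested was under 0.05). Of all tested rows, 25.2% were higher and 12.2% lower, so that 20% of these genes were called against 37.4% of all rows. With libraries rescaled by median of ratios, 5 of these genes were higher and 7 lower, a dependence described with the plot of calls by scaling. The median log2 difference of the 45 genes was 0.05, against 0.07 over all rows, and their median absolute difference was 0.11 against 0.17. Differences are on the log2(FPKM + 1) scale, which understates the change of low genes.

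The importin beta family carried the largest differences. Ipo7 encodes a carrier of ribosomal proteins and linker histones that can work together with importin beta. Ipo7 hearts stood at 50.4, 59.2 and 71.0 FPKM (lowest, median and highest) in OGT_TG, at 45.4, 49.7 and 53.6 FPKM in double transgenic, at 38.2, 44.9 and 49.1 FPKM in OGA_TG and at 40.6, 41.6 and 50.6 FPKM in WT. The OGT_TG hearts lay above WT except that the lowest OGT_TG heart fell just below the highest WT heart. The log2 difference of Ipo7 was 0.46 (SE 0.08, limma adjusted p = 0.000127), and it was 0.36 without OGT_TG replicates 3 and 6 (adjusted p = 0.00149).

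For Ipo5 the hearts stood at 66.6, 75.4 and 83.1 FPKM in OGT_TG, at 58.9, 60.9 and 66.4 FPKM in double transgenic, at 56.2, 58.6 and 61.7 FPKM in OGA_TG and at 56.4, 60.8 and 69.4 FPKM in WT. The groups overlapped only through OGT_TG replicate 2. The difference was 0.27 (SE 0.06, adjusted p = 0.000882). Ipo9, another carrier of histones, stood at 10.7, 11.03 and 12.6 FPKM in OGT_TG, at 8.90, 10.1 and 10.8 FPKM in double transgenic, at 8.42, 9.39 and 10.0 FPKM in OGA_TG and at 8.75, 9.08 and 10.5 FPKM in WT hearts. All OGT_TG hearts lay above all WT hearts. The difference was 0.24 (SE 0.06, adjusted p = 0.00241). Ipo7, Ipo5 and Ipo9 kept their calls in this comparison under every alternative tried.

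Ipo13 moved the other way. It encodes a carrier that works in both directions, importing some cargo and exporting other cargo. The hearts stood at 13.8, 15.2 and 20.3 FPKM in OGT_TG, at 20.4, 25.01 and 25.5 FPKM in double transgenic, at 16.0, 22.4 and 26.5 FPKM in OGA_TG and at 17.9, 23.4 and 25.8 FPKM in WT. Only OGT_TG replicates 1 and 2 reached the range of WT, in which replicate 1 was lowest. The log2 difference of -0.48 (SE 0.11, adjusted p = 0.00148) was kept under every alternative tried and was -0.42 without OGT_TG replicates 3 and 6 (adjusted p = 0.0146). Within the family 3 of 9 genes rose and 1 fell. Tnpo1, Tnpo2, Tnpo3, Ipo8 and Kpnb1, the main importin beta, were not called. The family median of 0.09 turned to -0.01 under quantile normalization.

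Inner-ring nucleoporins, the scaffold next to the membrane, were called higher for 2 of 5 genes. Nup155, in which a human variant has been linked to atrial fibrillation, lies at chr15:8109273-8161247 on the plus strand. It stood at 3.67, 4.05 and 4.66 FPKM in OGT_TG, at 3.06, 4.00 and 4.36 FPKM in double transgenic, at 2.90, 3.46 and 3.81 FPKM in OGA_TG and at 3.10, 3.32 and 3.52 FPKM in WT hearts. All OGT_TG hearts lay above all WT hearts. The difference was 0.24 (SE 0.07, adjusted p = 0.00728), and it was not called under quantile normalization (0.12, adjusted p = 0.186).

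Nup93 (chr8:94214564-94317227, plus strand), which ties the inner ring together, stood at 9.67, 10.4 and 13.1 FPKM in OGT_TG, at 8.24, 8.96 and 10.4 FPKM in double transgenic, at 7.70, 8.56 and 9.65 FPKM in OGA_TG and at 8.17, 8.80 and 10.1 FPKM in WT hearts. OGT_TG replicates 3 and 6 were the highest hearts, and the 2 lowest OGT_TG hearts lay within the WT range. The difference of 0.25 (SE 0.07, adjusted p = 0.0105) was 0.15 without these replicates (adjusted p = 0.113) and was also not called under quantile normalization (0.16, adjusted p = 0.0890). Nup205, Nup188 and Nup35 were not called, and the class median of 0.10 turned to -0.01 under quantile normalization.

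Among the 8 genes of the Y complex, the building block of the outer rings, 1 was higher and 1 lower. Sec13 (chr6:113728062-113740743, minus strand) stood at 48.7, 54.7 and 69.7 FPKM in OGT_TG, at 49.7, 54.1 and 56.3 FPKM in double transgenic, at 40.6, 44.7 and 48.8 FPKM in OGA_TG and at 44.4, 48.3 and 53.8 FPKM in WT hearts. The 2 highest OGT_TG hearts were replicates 3 and 6, and the groups overlapped. The difference of 0.22 (SE 0.08, adjusted p = 0.0276) was 0.09 without them (adjusted p = 0.295). Leaving out replicate 3 alone gave 0.175 (adjusted p = 0.0878), replicate 6 alone 0.158 (adjusted p = 0.0875) and WT replicate 1 alone 0.194 (adjusted p = 0.0654), so Sec13 was called only with all of these hearts. Sec13 was also not called with median-of-ratios scaling (0.143, adjusted p = 0.146) or quantile normalization (0.18, adjusted p = 0.0527). A fit to only the groups compared gave 0.221 (adjusted p = 0.0963).

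Nup133 (chr8:123897123-123949265, minus strand) stood at 3.82, 4.25 and 4.796 FPKM in OGT_TG, at 4.17, 4.57 and 4.87 FPKM in double transgenic, at 4.46, 4.63 and 5.00 FPKM in OGA_TG and at 4.47, 4.76 and 5.63 FPKM in WT hearts. OGT_TG replicates 2 and 4 lay within the WT range and the other 4 below it. The difference was -0.17 (SE 0.06, adjusted p = 0.0259). It was not called at an equal sum of FPKM (-0.127, adjusted p = 0.108) or in a fit to only the groups compared (-0.165, adjusted p = 0.101). With the title number as replicate block it was -0.17 with an adjusted p of 0.0903, without OGT_TG replicates 3 and 6 it was -0.12 (adjusted p = 0.161), and it was also lost without OGT_TG replicate 3, 5 or 6 or WT replicate 1 or 6 (-0.15 to -0.14, adjusted p 0.0521 to 0.0700). The exons of Nup133 overlap antisense genes, by at most 461 bases for a single gene. Whether reads of those genes were counted for Nup133 is unknown, since the strand setting is not given.

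Of 6 nucleoporins at the cytoplasmic face, Rae1 was called higher. Rae1 (chr2:173000117-173015739, plus strand) is an mRNA export factor that binds Nup98. It stood at 16.8, 19.7 and 21.5 FPKM in OGT_TG, at 15.5, 16.9 and 19.5 FPKM in double transgenic, at 13.6, 16.0 and 17.0 FPKM in OGA_TG and at 16.1, 17.0 and 17.8 FPKM in WT hearts. All OGT_TG hearts but replicate 6 lay above WT. The difference of 0.20 (SE 0.06, adjusted p = 0.0189) was not called with median-of-ratios scaling (0.12, adjusted p = 0.124) or quantile normalization (0.12, adjusted p = 0.159). No gene was called among the 2 tested of the central channel, the 3 of the nuclear basket, the 2 tested membrane nucleoporins, the 5 importin alpha adapters or the 5 exportins. Of these, Xpo7 and Xpo6 both stood at -0.15 (adjusted p = 0.0913 and 0.0745), and Nup210 at -0.20 (adjusted p = 0.0741).

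**Figure D2:**
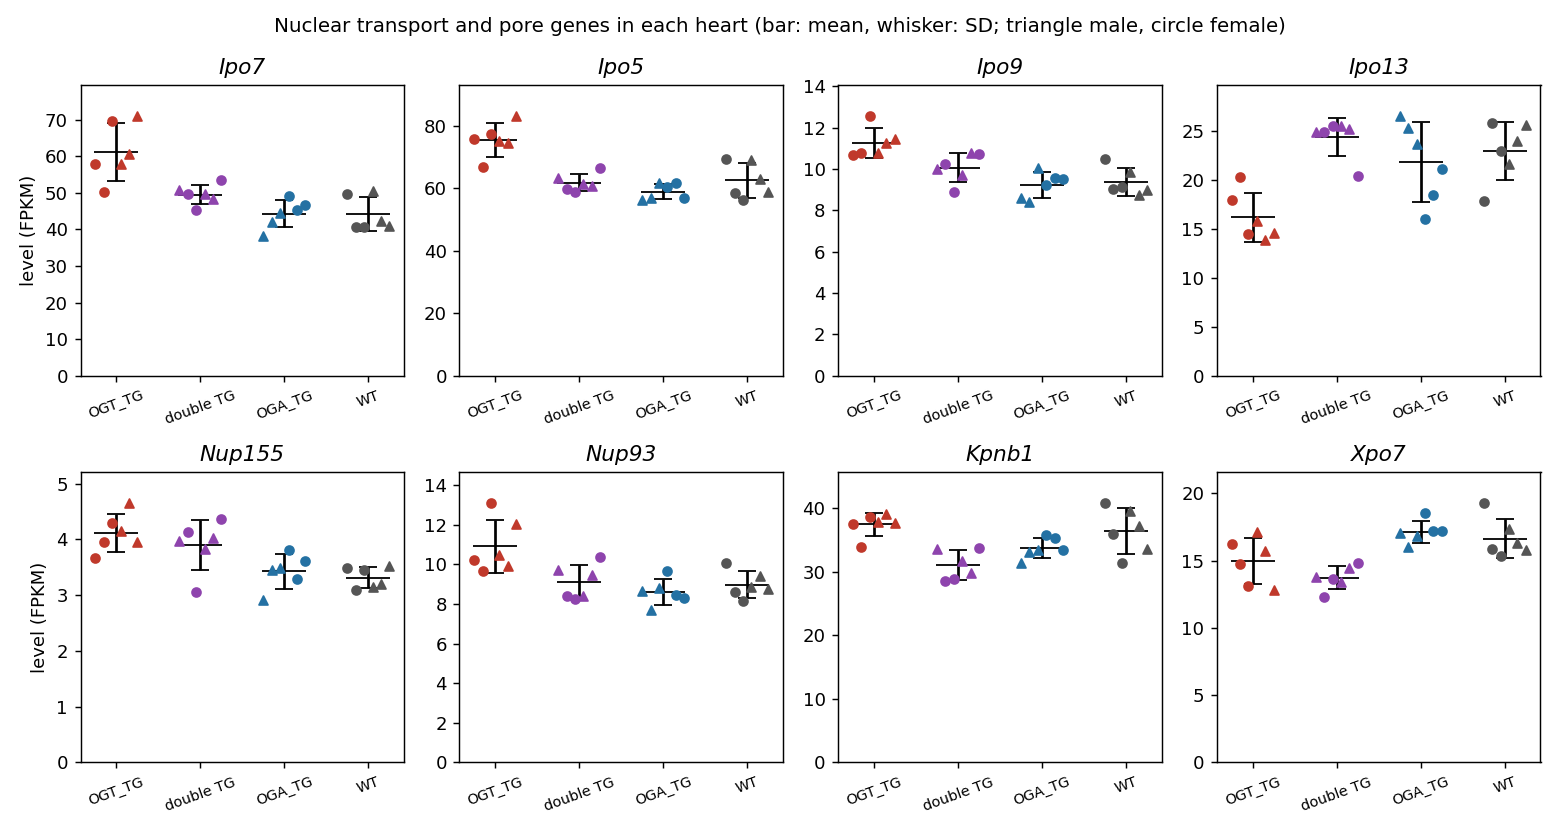
Level in FPKM of 8 named genes in each heart (triangles male, circles female), with the mean (bar) and SD (whisker) of 6 hearts per genotype. Ipo9 and Nup155 in OGT_TG lie above all WT hearts, Ipo13 in OGT_TG lies mostly below them, and Xpo7 in double transgenic hearts, at 12.3 to 14.8 FPKM, lies below WT.

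Markers of heart cell types moved in the same hearts. In OGT_TG against WT, 6 of 8 measured cardiomyocyte markers were lower, and their summed level ran from 30170 to 42477 FPKM in OGT_TG and from 46093 to 51149 FPKM in WT. Fibroblast markers were higher for 11 of 11, with sums of 1854 to 3273 FPKM in OGT_TG and 1112 to 1322 FPKM in WT. Macrophage markers were higher for 7 of 10, with sums of 255.0 to 609.1 FPKM in OGT_TG and 189.1 to 234.2 FPKM in WT. Markers of cycling cells were higher for all 7 tested of 10, with sums of 13.4 to 35.7 FPKM in OGT_TG and 7.74 to 10.9 FPKM in WT. Smooth muscle markers were higher for 3 of 4 and endothelial markers for 2 of 9, while pericyte markers were lower for 2 of 4. Over all tested rows 25.2% were higher and 12.2% lower in this comparison, so endothelial markers were not called higher more often than rows at large. No marker of these lists was at 0 in every heart of a genotype. In whole-heart RNA, fewer cells of a type and less RNA per cell cannot be told apart, and the part of these shifts in the differences of the transport genes was not tested.

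With both transgenes, 3 exportins, Kpnb1 and Nup35 were lower than in WT. No gene was higher and 5 of 45 were lower in double transgenic than in WT hearts, against 4.21% of all tested rows higher and 11.4% lower. The share called, 11.1% and all of it lower, was close to the 11.4% of all rows called lower. It was below the 15.6% of all rows called in either direction. The medians of both were near 0, at 0.01 for the 45 genes and -0.04 for all rows. Double transgenic and OGT_TG hearts were set against the same WT hearts. Cardiomyocyte markers were lower for 3 of 8 here, with sums of 37904 to 41290 FPKM in double transgenic hearts, and fibroblast markers higher for 2 of 11, with sums of 1245 to 1677 FPKM. Pericyte markers were lower for 2 of 4 and endothelial markers for 1 of 9. Smooth muscle markers were higher for 1 of 4 and markers of cycling cells for 1 of 7.

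Exportins made up 3 of the 5, and at an equal sum of FPKM these calls were lost. The same exportins were also called lower in OGT_TG than in WT hearts under median-of-ratios scaling and quantile normalization. Xpo7 (chr14:70654246-70766628, minus strand), an exportin of broad cargo, stood at 12.8, 15.2 and 17.1 FPKM in OGT_TG, at 12.3, 13.7 and 14.8 FPKM in double transgenic, at 16.0, 17.1 and 18.5 FPKM in OGA_TG and at 15.3, 16.1 and 19.3 FPKM in WT hearts. All double transgenic hearts lay below all WT and all OGA_TG hearts. The log2 difference from WT was -0.26 (SE 0.07, limma adjusted p = 0.0116). Against OGA_TG hearts it was -0.30 (SE 0.07, adjusted p = 0.00337), a call kept under every alternative tried. Xpo7 exons share 39 bases with Npm2 on the same strand.

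Xpo6 (chr7:126101715-126200501, minus strand), the exportin of actin with profilin, stood at 10.9, 11.7 and 13.3 FPKM in OGT_TG, at 9.85, 11.1 and 13.3 FPKM in double transgenic, at 11.7, 12.5 and 14.2 FPKM in OGA_TG and at 12.6, 13.2 and 14.2 FPKM in WT hearts. All double transgenic hearts but the highest lay below WT. The difference of -0.21 (SE 0.07, adjusted p = 0.0307) was lost when any of double transgenic replicates 1 to 4 or WT replicate 1 or 6 was left out (-0.21 to -0.17, adjusted p 0.0511 to 0.0826). Xpo5 (chr17:46202782-46243598, plus strand), the exportin of microRNA precursors, stood at 9.79, 10.7 and 11.5 FPKM in OGT_TG, at 9.02, 9.58 and 11.04 FPKM in double transgenic, at 10.4, 10.99 and 11.2 FPKM in OGA_TG and at 10.5, 11.2 and 12.04 FPKM in WT hearts. All double transgenic hearts but replicate 1 lay below WT. The difference was -0.19 (SE 0.05, adjusted p = 0.0146). With median-of-ratios scaling neither was called, at -0.145 for Xpo5 (adjusted p = 0.0544) and -0.161 for Xpo6 (adjusted p = 0.0942). Xpo6 was also not called under quantile normalization (-0.174, adjusted p = 0.0745). Xpo1 and Xpo4 were not called, and the median of the 5 exportins was -0.19, with -0.17 to -0.14 under the 3 other scalings.

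Kpnb1 (chr11:97159714-97187881, minus strand), which carries importin alpha and its cargo, stood at 33.9, 37.8 and 39.0 FPKM in OGT_TG, at 28.6, 30.7 and 33.8 FPKM in double transgenic, at 31.4, 33.4 and 35.9 FPKM in OGA_TG and at 31.4, 36.6 and 40.8 FPKM in WT hearts. Every OGT_TG heart lay above every double transgenic heart, and double transgenic and WT hearts overlapped. The difference from WT of -0.22 (SE 0.06, adjusted p = 0.0172) was -0.18 without WT replicate 1 (adjusted p = 0.0519). Kpnb1 exons overlap 466 bases of the antisense gene Gm11583, and whether reads of Gm11583 were counted for Kpnb1 is unknown.

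Nup35 (chr2:80617236-80658906, plus strand), an inner-ring nucleoporin that touches the membrane, stood at 2.78, 3.06 and 3.69 FPKM in OGT_TG, at 2.18, 2.56 and 2.72 FPKM in double transgenic, at 2.69, 2.95 and 3.45 FPKM in OGA_TG and at 2.89, 3.09 and 3.43 FPKM in WT hearts. All double transgenic hearts lay below all WT and all OGT_TG hearts. The difference from WT of -0.23 (SE 0.07, adjusted p = 0.0205) was lost without double transgenic replicate 3 (-0.20, adjusted p = 0.0555) or WT replicate 2 (-0.20, adjusted p = 0.0527). Nup35 has a near-identical copy, Gm4353, and shares exon bases with Dusp19, so its level is uncertain. None of the 5 differences between double transgenic and WT hearts was called when each library was scaled to an equal sum of FPKM, where the differences ran from -0.20 to -0.14 and the adjusted p from 0.0901 to 0.161.

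**Figure D3:**
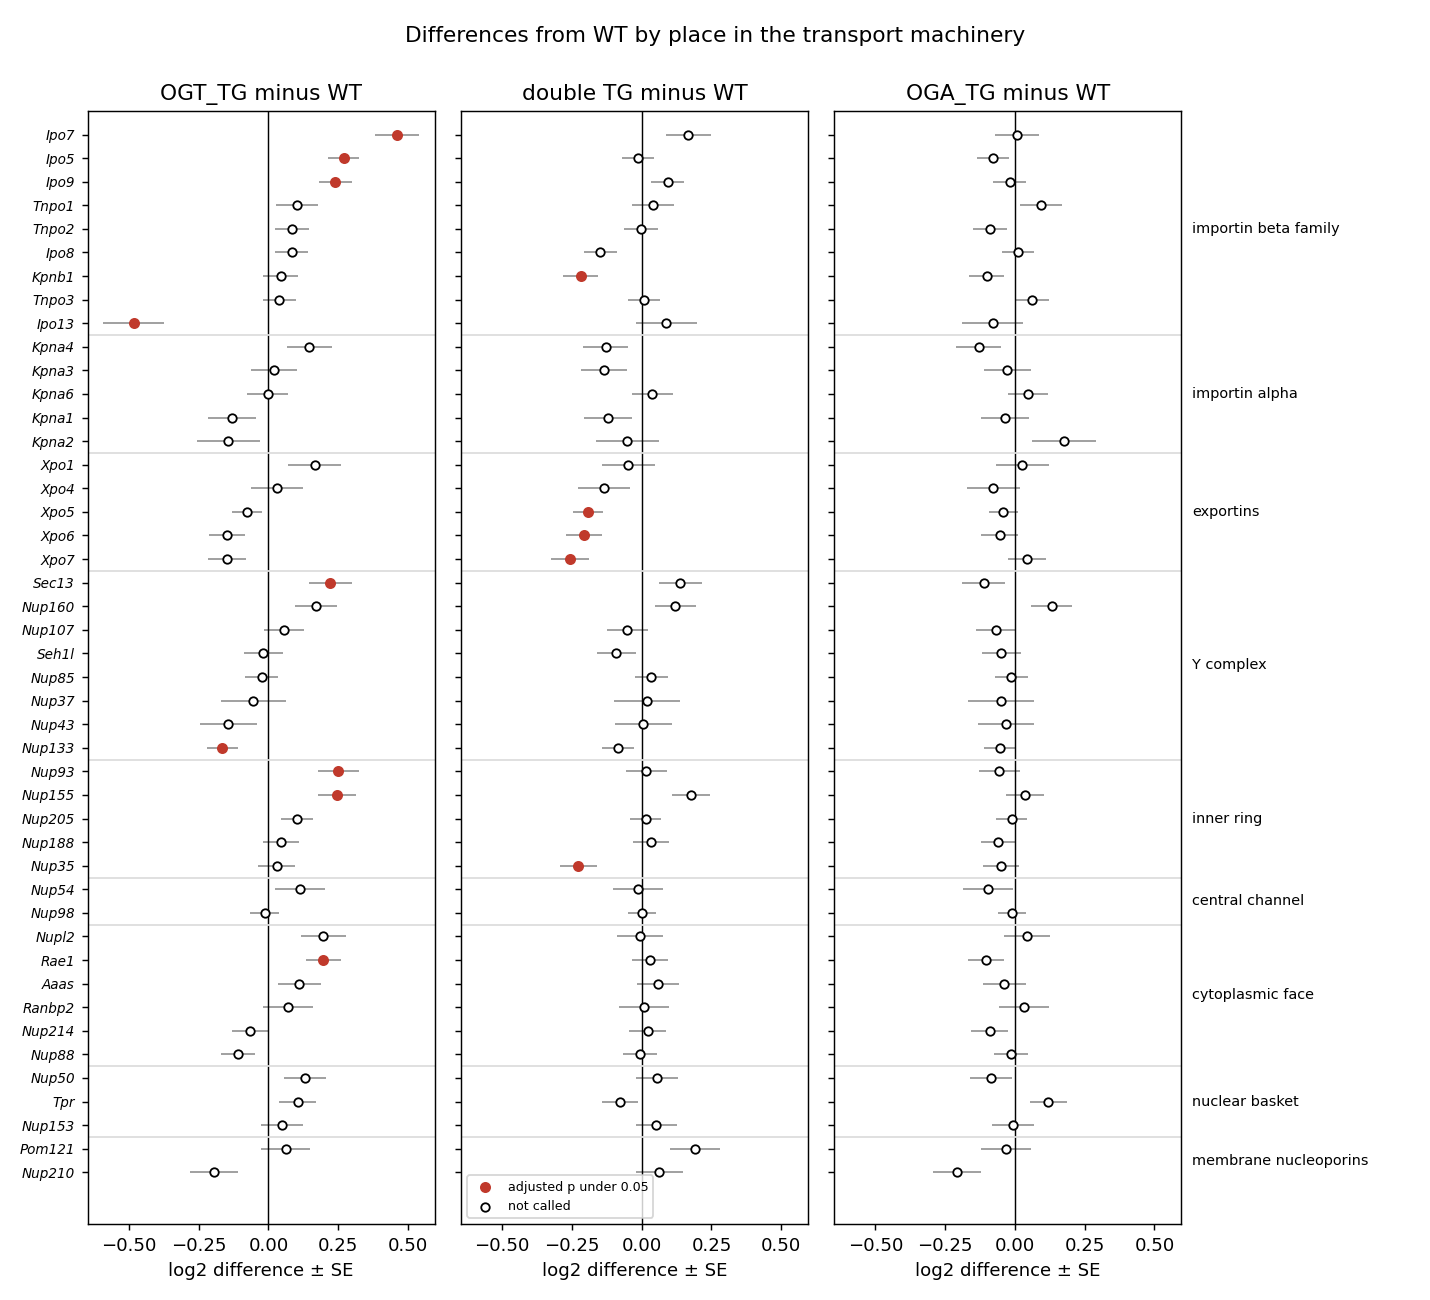
Log2 difference from WT with its SE for the 45 tested genes, grouped by place in the transport machinery, in OGT_TG, double transgenic and OGA_TG hearts (6 hearts each). Filled red points have a limma adjusted p under 0.05: 9 in OGT_TG, 5 in double transgenic and 0 in OGA_TG hearts.

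OGA overexpression alone gave no call. With limma 0 of 45 genes were called between OGA_TG and WT hearts, and 1 was at an unadjusted p under 0.05, Nup210 at -0.21 (SE 0.09, adjusted p = 0.419). Of all tested rows 0.0582% were higher and 0.3% lower. Differences of the 45 genes ran from -0.21 to 0.18 with a median of -0.03, against -0.05 over all rows. A difference that misses the threshold does not show equal levels.

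Between the genotypes that share the OGT transgene, Ipo13 stood higher and Ipo5 lower in double transgenic than in OGT_TG hearts. In double transgenic against OGT_TG hearts 2 genes were higher and 9 lower, against 5.02% of all rows higher and 27.2% lower. Rescaling by median of ratios gave 7 higher and 1 lower of these genes, beside 1383 and 1477 of all rows. As deposited, the share called was 24.4%, against 32.3% of all rows, and the median was -0.07, against -0.11 over all rows. The OGT_TG hearts enter both this comparison and the one with WT, so a low or high OGT_TG value moves both. The OGT row also differed, by 1.54 on the log2 scale (SE 0.30, adjusted p = 0.000612), so a higher OGT level and the OGA transgene cannot be told apart in this comparison or in the interaction. Markers moved here too. Fibroblast markers were lower for 8 of 11, with sums of 1245 to 1677 FPKM in double transgenic and 1854 to 3273 FPKM in OGT_TG hearts. Endothelial markers were lower for 4 of 9, macrophage markers for 3 of 10, markers of cycling cells for 3 of 7 and pericyte markers for 1 of 4. Cardiomyocyte markers were higher for 2 of 8, and no smooth muscle marker was called. Their part in the differences was not tested.

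Ipo13 stood higher in double transgenic hearts by 0.57 (SE 0.11, limma adjusted p = 0.000594), and every double transgenic heart lay above every OGT_TG heart, though the nearest hearts stood at 20.35 FPKM in double transgenic and 20.27 FPKM in OGT_TG. Ipo5 was lower, at -0.28 (SE 0.06, adjusted p = 0.000942). Both calls were kept under every alternative. Ipo7 was lower, at -0.29 (SE 0.08, adjusted p = 0.00804), and at -0.19 without OGT_TG replicates 3 and 6 (adjusted p = 0.0771). Kpnb1 was lower, at -0.26 (adjusted p = 0.00278), Nup35 at -0.26 (adjusted p = 0.00535) and Nup93 at -0.23 (adjusted p = 0.0190). Without OGT_TG replicates 3 and 6, Nup93 stood at -0.14 (adjusted p = 0.157), and it was also lost without OGT_TG replicate 3 alone (-0.18, adjusted p = 0.0629) or double transgenic replicate 3 (-0.21, adjusted p = 0.0526). Rae1 was lower, at -0.17 (adjusted p = 0.0475), a call kept in 7 of 22 alternatives. It was lost without any of OGT_TG replicates 1 to 5 or double transgenic replicates 2 to 5 (-0.17 to -0.14, adjusted p 0.0555 to 0.121).

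Kpna4, Ipo8, Tpr and Nup210 were called here and not in OGT_TG against WT. Kpna4 (chr3:69067149-69127113, minus strand), an importin alpha adapter, stood at 27.5, 28.6 and 31.4 FPKM in double transgenic, at 31.0, 35.2 and 43.0 FPKM in OGT_TG, at 25.8, 29.7 and 31.3 FPKM in OGA_TG and at 27.4, 31.0 and 37.2 FPKM in WT hearts. Double transgenic and OGT_TG hearts overlapped by a narrow margin. The difference was -0.28 (SE 0.08, adjusted p = 0.0125). Ipo8 (chr6:148770683-148831467, minus strand), a close relative of Ipo7 that imports SMAD proteins, stood at 6.94, 7.49 and 8.36 FPKM in double transgenic, at 8.31, 9.03 and 9.87 FPKM in OGT_TG, at 7.91, 8.62 and 9.20 FPKM in OGA_TG and at 7.73, 8.49 and 9.44 FPKM in WT hearts. Double transgenic and OGT_TG hearts overlapped at a single value on each side, and the difference was -0.23 (SE 0.06, adjusted p = 0.00458). Its exons overlap 16 bases of an antisense transcript.

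Tpr (chr1:150392838-150449935, plus strand), the filament protein of the nuclear basket, stood at 24.9, 27.6 and 30.3 FPKM in double transgenic, at 28.7, 31.6 and 34.7 FPKM in OGT_TG, at 30.3, 31.6 and 35.2 FPKM in OGA_TG and at 25.6, 29.4 and 32.9 FPKM in WT hearts. The groups overlapped, and the difference between double transgenic and OGT_TG of -0.18 (SE 0.07, adjusted p = 0.0379) was kept in 9 of 22 alternatives. It was lost without OGT_TG replicate 1, 3, 4 or 5 or double transgenic replicate 2, 3, 4 or 5 (-0.18 to -0.15, adjusted p 0.0509 to 0.102), and without OGT_TG replicates 3 and 6 together (-0.18, adjusted p = 0.0864). Tpr exons overlap antisense genes, by at most 204 bases for a single gene, and whether reads of those genes were counted for Tpr is unknown. Nup210 (chr6:91013068-91116829, minus strand) stood at 0.854, 1.14 and 1.27 FPKM in double transgenic, at 0.467, 0.748 and 1.31 FPKM in OGT_TG, at 0.648, 0.762 and 0.814 FPKM in OGA_TG and at 0.813, 1.01 and 1.25 FPKM in WT hearts. It passed the minimum of 1 FPKM mainly through double transgenic and WT hearts, so its difference is given as a description. With no filter on low values it was 0.26 (adjusted p = 0.0213). The difference between double transgenic and OGT_TG was 0.26 (SE 0.09, adjusted p = 0.0235), and 0.16 without OGT_TG replicates 3 and 6 (adjusted p = 0.177). Leaving out OGT_TG replicate 3 or 6 or double transgenic replicate 3 or 4 alone also ended the call (0.21 to 0.25, adjusted p 0.0513 to 0.0681).

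In double transgenic against OGA_TG hearts 2 genes were higher and 3 lower, against 8.33% of all rows higher and 9.77% lower. Nup210 was higher by 0.27 (SE 0.09, limma adjusted p = 0.0301) and Sec13 by 0.25 (SE 0.08, adjusted p = 0.0268). Every double transgenic heart lay above every OGA_TG heart for both genes. Nup210 had passed the filter through double transgenic and WT hearts, and no OGA_TG heart reached 1 FPKM, so its difference is given as a description. With no filter it was 0.27 (adjusted p = 0.0278). Xpo7 was lower, at -0.30, Tpr at -0.20 (adjusted p = 0.0387) and Xpo5 at -0.15 (adjusted p = 0.0483). Except for Xpo7 these calls were each lost on leaving out single hearts. Nup210 was lost without OGA_TG replicate 5 or 6 or double transgenic replicate 3, 4 or 6 (0.24 to 0.27, adjusted p 0.0544 to 0.0716). Sec13 was lost without double transgenic replicate 2 or 5 or OGA_TG replicate 4 or 5 (0.22 to 0.24, adjusted p 0.0518 to 0.0720). Tpr was lost without double transgenic replicate 2, 3, 4 or 5 or OGA_TG replicate 3, 4, 5 or 6 (-0.20 to -0.17, adjusted p 0.0516 to 0.104). Xpo5 was lost without double transgenic replicate 2, 3, 4, 5 or 6 or OGA_TG replicate 1, 2, 4, 5 or 6 (-0.16 to -0.13, adjusted p 0.0526 to 0.115).

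The interaction asks whether OGA-transgenic hearts differed from their counterparts lacking that transgene by another amount when OGT was also transgenic. It subtracts the difference of OGA_TG from WT hearts from the difference of double transgenic from OGT_TG hearts. It was called positive for 2 genes and negative for 1, against 1.81% of all rows positive and 5.49% negative. Ipo13 had an interaction of 0.65 (SE 0.16, limma adjusted p = 0.0161), kept under every alternative. Nup210 had 0.47 (SE 0.12, adjusted p = 0.0229), lost only without OGT_TG replicates 3 and 6 (0.36, adjusted p = 0.0646). Double transgenic and WT hearts, through which Nup210 passed the filter, are also the groups that enter the interaction with a plus sign, so its value is given as a description. With no filter on low values the interaction was 0.47 (adjusted p = 0.0249). Tpr had -0.30 (SE 0.09, adjusted p = 0.0495), kept in 8 of 33 alternatives. It was lost without double transgenic replicates 2 to 5, OGT_TG replicates 1 and 3 to 6, OGA_TG replicates 2 to 6 or WT replicates 2, 3, 5 and 6, each left out alone (-0.32 to -0.26, adjusted p 0.0520 to 0.0938), and without OGT_TG replicates 3 and 6 together (-0.30, adjusted p = 0.0902). Between the sexes 0 of 45 genes were called with limma, against 0.0998% of all rows higher and 0.166% lower in males than in females, and 3 were at an unadjusted p under 0.05: Aaas at -0.14, Nup85 at -0.09 and Nup98 at -0.08 (males minus females). They were named after their values were seen.

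**Figure D4:**
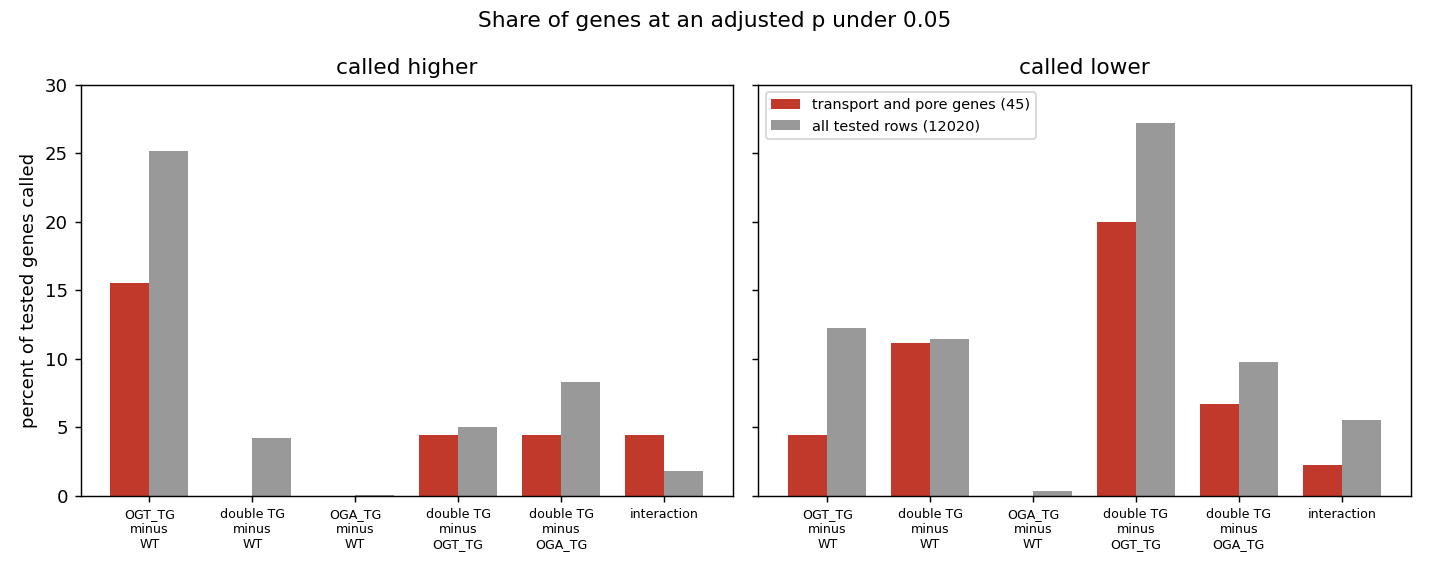
Percent of the 45 transport and pore genes (red) and of all 12020 tested rows (grey) called higher (left) and lower (right) at a limma adjusted p under 0.05 in 6 comparisons. The red bars lie at or below the grey ones except for positive interactions, where 2 of 45 genes stand against 1.81% of rows.

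How many genes were called in each direction depended on how libraries were scaled against each other, since calls were lost and other genes were called, while no called gene changed sign. As deposited, the median of all tested rows in double transgenic minus OGT_TG was -0.11, and median-of-ratios scaling moved it to 0.00. With that scaling 7 of the 45 genes were higher and 1 lower in this comparison, and with quantile normalization 8 were higher and 1 lower, whereas 2 were higher and 9 lower as deposited. Of all 12020 tested rows, 604 higher and 3274 lower as deposited became 1383 and 1477 under median-of-ratios scaling. After quantile normalization they were 1273 and 1364. Of the 11 genes called as deposited, 3 were called under each: Ipo13 and Nup210, which stood higher, and Ipo5, which stood lower. Relative to the other rows, Nup88 (0.23 under median-of-ratios scaling), Nup214 (0.19), Nup85 (0.18) and Nup133 (0.19) were among the genes then called higher in double transgenic hearts, and Nup93, Kpnb1, Kpna4, Ipo8, Ipo7 and Nup35 were not called.

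For OGT_TG minus WT the split of 7 higher and 2 lower became 9 and 1 at an equal sum of FPKM, 5 and 7 with median-of-ratios scaling, and 3 and 8 after quantile normalization. Of all rows, 3029 higher and 1470 lower became 3587 and 1162 at an equal sum and 2168 and 2122 under median-of-ratios scaling. After quantile normalization they were 1955 and 2208. Ipo7, Ipo5 and Ipo9 remained higher and Ipo13 lower under all 4. Relative to the other rows, Xpo5 (-0.15), Xpo6 (-0.22) and Xpo7 (-0.22) were called lower in OGT_TG hearts with median-of-ratios scaling, as they were with quantile normalization. For double transgenic minus WT the 5 lower genes became 3 lower and 1 higher under both of these scalings and 0 at an equal sum. Xpo7 and Nup35 were the genes called lower under both. Of all rows, 506 higher and 1372 lower in this comparison became 761 and 916 under median-of-ratios scaling. They were 686 and 885 after quantile normalization and 754 and 732 at an equal sum.

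**Figure D5:**
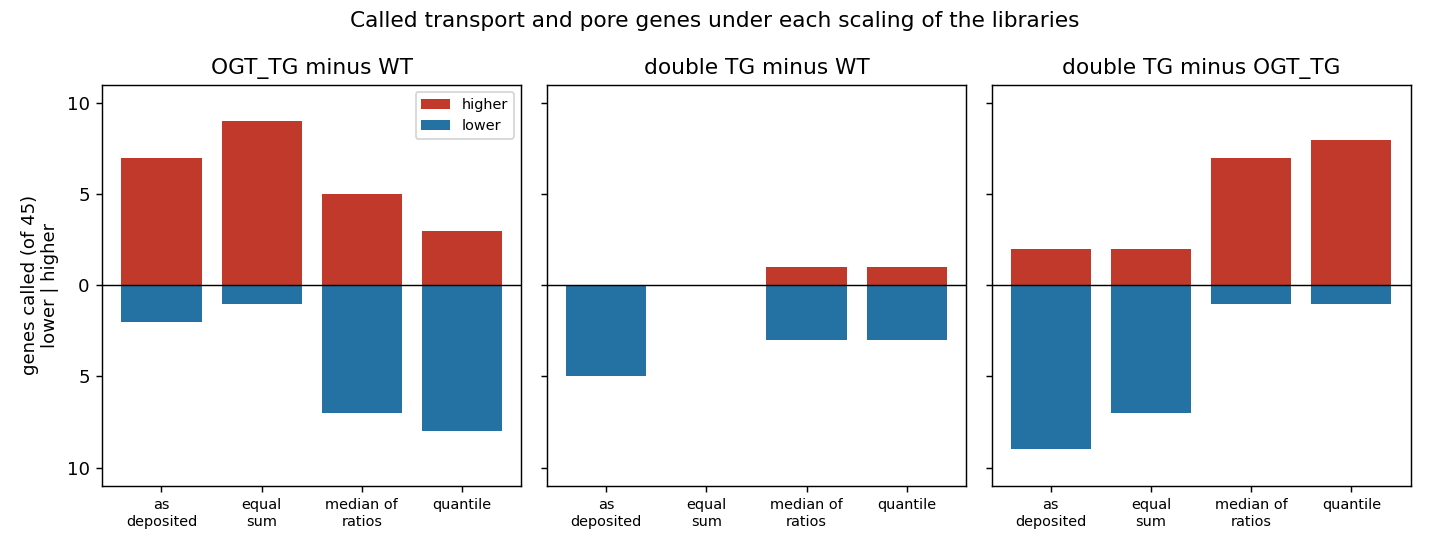
Number of the 45 genes called higher (red, upward) and lower (blue, downward) with values as deposited and under 3 other scalings of the libraries. In double transgenic minus OGT_TG the split of 2 higher and 9 lower as deposited stands against 7 and 1 under median-of-ratios scaling. Of all tested rows, 604 higher and 3274 lower stand against 1383 and 1477.

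Other genes of nuclear transport, such as those of the Ran cycle and mRNA export factors, were listed separately. Of 35 listed, 30 were tested, and 5 were higher and 1 lower in OGT_TG than in WT hearts, with a median of 0.09. Over all tested rows 25.2% were higher and 12.2% lower. Rangap1, the activator of Ran's GTPase at the cytoplasmic face, averaged 17.4 ± 3.98 FPKM in OGT_TG, 16.9 ± 1.28 in double transgenic, 11.95 ± 0.867 in OGA_TG and 11.7 ± 1.62 FPKM in WT hearts (SD, n = 6 each). Its difference was 0.51 in OGT_TG (SE 0.11, limma adjusted p = 0.00115) and 0.50 in double transgenic hearts (SE 0.11, adjusted p = 0.00408), both against the same WT hearts. Senp2, a SUMO protease found at the nuclear basket, was higher in OGT_TG by 0.29 (SE 0.06, adjusted p = 0.000696) and lower in double transgenic than in OGT_TG hearts at -0.28 (SE 0.06, adjusted p = 0.00153). Mad1l1 at 0.38 and Thoc5 at 0.20 were also higher in OGT_TG, and Heatr3, an import factor for a ribosomal protein, was lower, at -0.23 (adjusted p = 0.0154). In double transgenic against WT hearts 1 of the 30 was higher and 2 lower, beside 4.21% and 11.4% of all rows. The split of 5 higher and 1 lower in OGT_TG became 9 and 0 at an equal sum of FPKM, 2 and 4 with median-of-ratios scaling, and 2 and 3 after quantile normalization. The median turned to -0.01 under quantile normalization.

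The nuclear envelope and lamina list gave 2 higher and 3 lower of 15 in OGT_TG against WT hearts, beside the same 25.2% and 12.2% of all rows. The symbols Nup62, Ipo11, Ipo4 and Nupl1 stood in 4 joined rows, which were not called in any comparison.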

How the data were processed

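Whole-heart RNA of 24 mice was sequenced as stranded polyadenylated libraries. The deposited table gives FPKM per gene, made by the authors with FastQC, TopHat, StringTie, Cuffdiff 2.2.1 and SAMtools on mm10, per the submitters' processing notes, which give no order of use. The strand setting of the quantification is not given in the sources used here. Of 19664 rows, 4 with a missing value were dropped. Genes of the pore and of transport, and the lists of other genes and markers, were chosen with earlier results of these data known. By the rule for named genes, values in every heart were given for up to 8 called genes per direction with the largest difference in OGT_TG against WT, double transgenic against WT and double transgenic against OGT_TG, for the 4 genes highest in WT, and for genes called in OGA_TG against WT, in the interaction or between the sexes. At most 8 called genes of the other transport list were named.

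Values were tested as log2(FPKM + 1) for the 12020 rows at 1 FPKM or more in at least 6 libraries, with limma 3.58.1 in R 4.3.3 (empirical Bayes with intensity trend). All 24 hearts entered 1 fit with terms for the 4 genotypes and sex, and p-values were adjusted by Benjamini and Hochberg over all tested rows. A gene was called at an adjusted p under 0.05. Hearts were taken as biological replicates, numbered in accession order. FPKM holds no counts, so absolute depth is unknown. Relative depth, read from the steps between low values, lay between 0.872 and 1.363 of WT replicate 1, but only 19.8% to 37.4% of the ratios stood at the mode, and whole reads were not recovered.

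Between genotypes, a number in the titles is shared by WT and OGT_TG hearts only. Hearts within each genotype also share numbers, and the labels do not say what the numbers mark. Except in double transgenic hearts, each number belongs to a single sex, so sex and number cannot be fully told apart. The main fit held no term for the numbers and took the hearts of a genotype as independent. Deviations of same-numbered hearts from the genotype mean had correlations of 0.148, 0.216, 0.377 and 0.575 over the 4 numbers. From the mean of genotype and sex the correlation was 0.37 for the female numbers and 0.204 for the male ones. The numbers were taken to pair these hearts, but no correlation between hearts of different numbers is given for comparison. Alternatives were the scaling of libraries (equal sum of FPKM, median of ratios, quantile), the pseudocount, the filter on low values, the intensity trend, a fit to only the groups compared, a replicate block by title number, and leaving out each heart or OGT_TG replicates 3 and 6. Positions come from GENCODE M21 on GRCm38, near-identical copies from BLAST+ 2.17.0 and promoters from RefSeq GRCm38.p6. The fit was run on simulated data with independent noise in each row and heart. That setting lacks the shifts that many genes shared within a heart, so it does not test the calls under such shifts.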

Additional observations from a re-analysis of the deposited data

Results flagged for a closer look

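Among 19 named genes, 76 groups of 6 hearts were examined for a heart far from the other 5, a pattern chance gives in about 1 in 20 groups, and 2 were found. Ipo13 in double transgenic replicate 6 stood at 20.35 FPKM, below the other 5 at 24.84 to 25.49 FPKM. Kpnb1 in OGT_TG replicate 2 stood at 33.87 FPKM, below the other 5 at 37.56 to 39.05 FPKM.

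For 3 of 45 genes OGA-transgenic hearts differed from their counterparts by another amount when OGT was also transgenic, by the interaction term of the limma fit. The share called was 6.67%, against 7.3% of all tested rows. The interaction was 0.651 on the log2(FPKM + 1) scale for Ipo13, 0.466 for Nup210 and -0.301 for Tpr. Nup210 passed the filter on low values mainly through double transgenic and WT hearts, and its call was lost without OGT_TG replicates 3 and 6. Tpr kept its call in 8 of 33 alternatives. The OGT row was also higher in double transgenic than in OGT_TG hearts.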

How the results depend on the processing

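Of 33 called differences of these genes, recomputed 761 times in all, 614 recomputations kept the call, 147 lost it and 0 reversed the sign. The 8 calls kept throughout were Ipo7, Ipo5, Ipo9 and Ipo13 in OGT_TG minus WT, Ipo13 and Ipo5 in double transgenic minus OGT_TG, Xpo7 in double transgenic minus OGA_TG, and the interaction of Ipo13. With an equal sum of FPKM, 0 genes were called by limma between double transgenic and WT hearts, against 5, and 11 were at an unadjusted p under 0.05. Of all 12020 tested rows, 1486 were called at an equal sum, against 1878 as deposited. The counts that follow are given without those of all rows, so they do not show a change particular to these genes. In a fit to only the groups compared, 7 were called between double transgenic and OGT_TG, against 11. Without OGT_TG replicates 3 and 6 the interaction was called for 1 gene, against 3, and OGT_TG minus WT for 6, against 9. Leaving out single hearts gave 7 to 12 calls in OGT_TG minus WT, 3 to 5 in double transgenic minus WT, 7 to 13 in double transgenic minus OGT_TG, 1 to 6 in double transgenic minus OGA_TG and 2 to 4 for the interaction. The lowest counts came without WT replicate 1 (3), without OGT_TG replicate 3 or double transgenic replicate 3 (7) and without OGA_TG replicate 5 (1). With the replicate block, 9 genes became 8 of the 9 plus 1 other in OGT_TG minus WT, and Nup133 alone lost its call. The cause of these changes was not tested. Absolute depth is unknown, so no counting error can be given for low genes such as Nup210.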
